A study of Mus musculus with 16 samples.

Results

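The 9 kidney arrays labelled Aqp11-/-, out of 16 arrays in the study, were examined by themselves for how far knockout pups differed from one another. They were taken by the genotype in the sample title, and the 7 wild-type arrays entered no comparison here. Aqp11 encodes aquaporin-11, a channel protein of intracellular membranes. All 9 pups were C57BL/6J by strain label, homozygous for the Aqp11 knockout allele, and 7 days old. The allele came from a 129/SvEvBrd background and had been crossed repeatedly into C57/BL6, and the knockouts were born to heterozygous parents. Whole kidney was profiled, with all its cell types mixed. RNA of each kidney went on its own Affymetrix Mouse Genome 430 2.0 array, so the arrays are separate animals, 5 male and 4 female. They are called here by the numbers in their labels: 1-2, 2-3, 3-2 and 4-3 were female, and 2-4, 3-3, 3-4, 4-4 and 5-2 were male. No label says what the first of the paired numbers stands for.

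The question was whether the responses known from injured kidney rose and fell together among animals of one genotype and age. Each response was followed by a pair of genes. Havcr1, also called kidney injury molecule 1, is a phosphatidylserine receptor that damaged proximal tubule cells put on their surface. Lcn2 is the iron-siderophore carrier lipocalin-2, released by injured nephron segments. Ddit3 encodes CHOP, a transcription factor induced when unfolded protein accumulates in the endoplasmic reticulum (ER), and Trib3 is a pseudokinase downstream of CHOP and ATF4. C1qa is a chain of the first complement component, made in kidney by resident macrophages, and Cd74 is the invariant chain that escorts MHC class II molecules in antigen-presenting cells. Slc34a3 is a sodium-phosphate cotransporter and Slc5a2 (SGLT2) is the main glucose cotransporter, both in the apical membrane of the proximal tubule. That segment reabsorbs most of the glucose, phosphate, amino acids and protein filtered by the glomerulus, uses fatty acids and mitochondria for energy, and tends to lose its transporters when injured.

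The promoters of these genes are shown with the letters of site types known for C/EBP, ATF4 and AP-1 factors, whose genes were also measured on the arrays. Sequences come from RefSeq on assembly GRCm38.p6, as windows of 300 bases around a transcript start, and were matched for 5 of the 8 genes: Havcr1, Lcn2, Ddit3, Trib3 and Slc34a3. Both strands were searched for TTGCNNAA, a C/EBP-type site, for TGATGNAA, the site type read by ATF4 dimers, and for TGANTCA, an AP-1 site. Capitals below mark the match. The Havcr1 window lies at chr11:46750261-46750560 on the plus strand, at the middle one of its 3 listed starts, and its C/EBP-type match begins at -46 from the start. The Lcn2 window lies at chr2:32387690-32387989 on the minus strand, with the match at -216. The Trib3 window lies at chr2:152344011-152344310 on the minus strand, with an ATF4-type match 14 bases after the start.
Havcr1: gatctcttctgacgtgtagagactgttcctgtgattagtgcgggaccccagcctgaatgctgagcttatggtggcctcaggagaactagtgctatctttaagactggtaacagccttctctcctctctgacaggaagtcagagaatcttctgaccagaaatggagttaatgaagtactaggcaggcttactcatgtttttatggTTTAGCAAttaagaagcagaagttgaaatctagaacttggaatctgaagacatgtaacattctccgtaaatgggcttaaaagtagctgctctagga
Lcn2: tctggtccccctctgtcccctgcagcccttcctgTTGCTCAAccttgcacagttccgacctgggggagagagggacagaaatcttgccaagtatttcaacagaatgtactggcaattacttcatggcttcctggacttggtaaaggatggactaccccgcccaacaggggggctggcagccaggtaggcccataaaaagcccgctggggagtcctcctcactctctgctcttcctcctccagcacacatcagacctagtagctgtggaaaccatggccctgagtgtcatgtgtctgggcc
Trib3: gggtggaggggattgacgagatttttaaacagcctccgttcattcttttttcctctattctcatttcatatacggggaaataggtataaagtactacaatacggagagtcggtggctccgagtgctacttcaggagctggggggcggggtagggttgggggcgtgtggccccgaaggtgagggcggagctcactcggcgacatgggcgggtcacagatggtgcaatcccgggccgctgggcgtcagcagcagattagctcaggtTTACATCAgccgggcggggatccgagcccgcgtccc

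Among 32851 RefSeq promoter windows of the same length, 10.8% held the C/EBP-type letters, 3.97% the ATF4-type letters and 7.81% the AP-1 letters. Ddit3 held an AP-1 match at -242, and Slc34a3 held none of the 3 motifs. Of the other Havcr1 starts, the last held an AP-1 match 10 bases after it and the first held none of the 3 motifs. With 3 windows searched, Havcr1 had more places for a match than a gene with 1. A match is a run of letters and was not tested as a binding site.

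Signal was quantile normalized over the 9 arrays and is given as log2 throughout, with values below a signal of 6.99 set to that floor (2.80 in log2). Before normalization the trimmed mean signal ran from 124 to 236, and fell into 4 brighter arrays (1-2, 2-3, 3-2 and 3-3, from 202 to 236) and 5 dimmer ones (from 124 to 141). The brighter arrays were 3 females and 1 male, and the dimmer arrays 1 female and 4 males. The log2 ratio of 3' to 5' actin control probe sets, a sign of RNA quality and labelling, was 0.27 to 0.40 on brighter arrays and 0.16 to 0.26 on dimmer ones. The same ratio for Gapdh ran the other way, from -0.52 to -0.40 on brighter arrays and from -0.36 to -0.13 on dimmer ones. Brightness left a trace after normalization: 1588 of 12349 tested genes (12.9%) followed the log2 trimmed mean by limma with Benjamini-Hochberg adjustment. None of the 8 genes differed between brighter and dimmer arrays by an exact two-sided permutation test (unadjusted p from 0.26 to 0.96). Aqp11 was near the floor: its most often floored probe set was at the floor on 7 of 9 arrays, and the probe set used was at the floor on 5 of 9 and reached 5.27 on array 2-3. No source used here says whether the probe sets lie inside the removed sequence, so their level does not check the genotype. Sex labels were borne out by Xist, Eif2s3y, Kdm5d and Uty, which separated the 4 female from the 5 male arrays, and 5 of 12349 genes (0.0405%) differed by sex, the fifth being Eif2s3x. The 8 genes had limma adjusted p for sex from 0.63 to 0.99.

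Injury genes were widely spread among the knockouts, and 1 animal stood at the top for both. Havcr1 was 9.65 on array 1-2, 9.01 on 4-4, 8.92 on 2-3, 8.67 on 2-4, 8.42 on 3-4, 8.36 on 3-3, 8.30 on 3-2, 8.19 on 4-3 and 8.13 on 5-2, a 2.87-fold range (SD 0.49, n = 9). Its SD was above that of 98.8% of tested genes of similar mean signal. Lcn2 ran from 9.51 on array 4-3 through a median of 9.85 to 10.61 on array 1-2, a 2.15-fold range (SD 0.32, n = 9). Array 1-2 was highest for both genes and array 4-4 second for both, while array 2-3, next for Havcr1, was second lowest for Lcn2.

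The ER stress genes varied less. Ddit3 ran from 7.83 on array 5-2 through a median of 8.18 to 8.58 on array 1-2 (SD 0.27, 1.68-fold range, n = 9). Trib3 ran from 6.19 on array 3-3 through a median of 6.72 to 6.97 on array 1-2 (SD 0.25, 1.71-fold range, n = 9). The spread of Trib3 was close to the middle for genes of its signal, at the 56.5th percentile of SD. A second probe set of Ddit3 followed the one used with r = 0.67, and a second one of Trib3 with r = 0.45, so the order of arrays was less well fixed for these genes than for Havcr1, whose probe sets correlated at r = 0.95.

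The macrophage genes disagreed over which animals were high. C1qa was 9.62 on array 1-2, while the other 8 arrays lay between 8.70 and 9.01 (SD 0.29, n = 9). Cd74 was high on arrays 5-2 (9.94), 1-2 (9.93), 3-4 (9.70) and 3-2 (9.59), and low on arrays 2-4 (8.93) and 2-3 (9.15), with an SD of 0.34. In whole-kidney RNA, fewer cells of a type and less RNA per cell cannot be told apart, for these genes and for those of the tubule.

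Slc5a2 had the widest fold range of the 8 genes. It was 7.05 on array 1-2, 7.59 on 2-3, 7.89 on 2-4, 8.20 on 4-4, 8.54 on 3-3, 8.75 on 3-4, 8.80 on 3-2, 8.88 on 5-2 and 8.91 on 4-3. That is a 3.64-fold range (SD 0.66, n = 9), and 99.8% of tested genes of similar signal had a smaller SD. Slc34a3 was dim, from 4.28 on arrays 1-2 and 2-3 through a median of 5.21 to 5.66 on array 4-3 (SD 0.55, n = 9). By the probe sets used, arrays 1-2 and 2-3 were the lowest for both genes and array 4-3 the highest for both. A second probe set of Slc5a2 followed the one used with r = 0.90. It was lowest on array 2-3 (5.13), then on 1-2 (5.57), and highest on 3-4 (7.55), so which animal was lowest depended on the probe set.

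**Figure D1:**
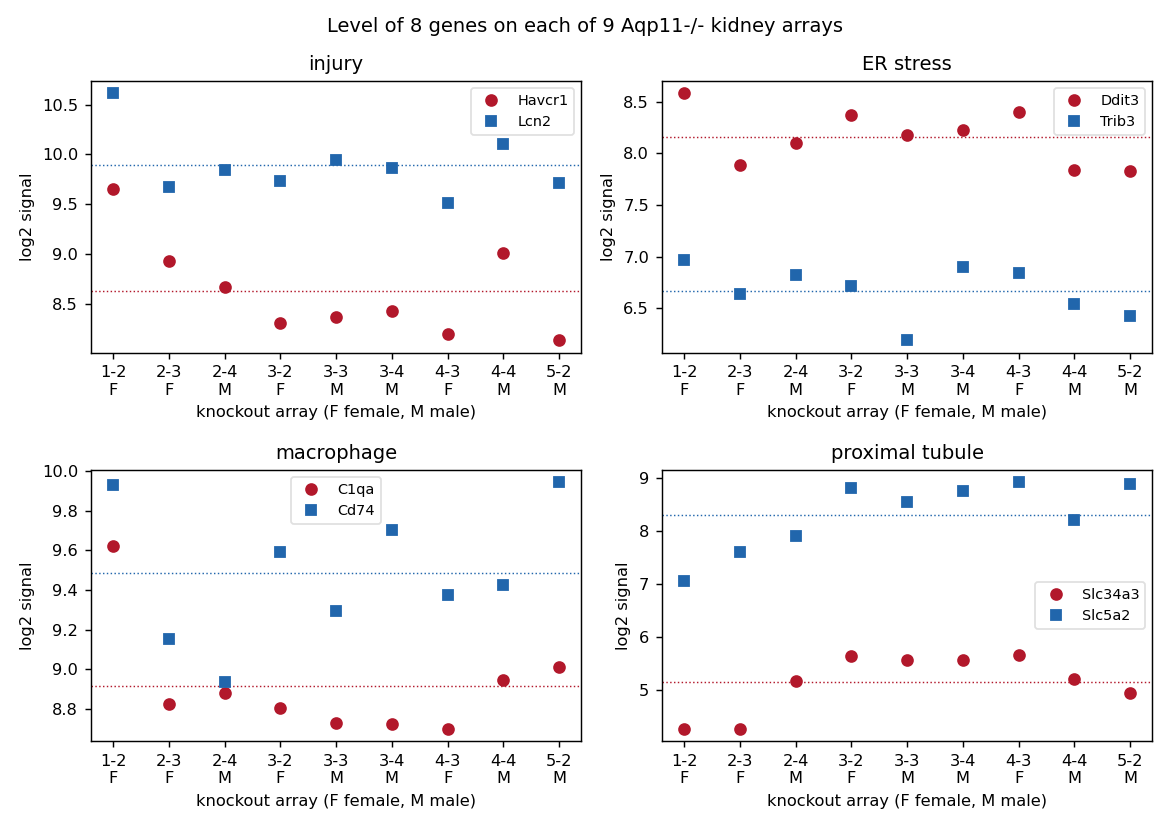
Log2 signal (y axis) of the 8 genes on each of the 9 knockout arrays (x axis, F female, M male), in 4 panels; each point is 1 animal and dotted lines are gene means. Array 1-2 is highest for Havcr1 (9.65), Lcn2 (10.61), Ddit3 (8.58), Trib3 (6.97) and C1qa (9.62), and lowest for Slc5a2 (7.05).

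Across the 9 animals, Havcr1 was high where Slc5a2 was low. This was the strongest of the 28 correlations among the 8 genes, with Pearson r = -0.93 (exact permutation p = 0.000992, 0.0278 after Benjamini-Hochberg adjustment over 28 pairs) and Spearman rho = -0.92 (exact permutation p = 0.00131, adjusted 0.0367). The relation did not rest on the animals most extreme for Havcr1: without arrays 1-2 and 4-4, the farthest from its median, r was -0.96 over 7 arrays. The arrays farthest from the median of Slc5a2 were not left out together. Leaving out 1 array at a time gave r from -0.96 to -0.86. The weakest value, -0.86 without array 1-2, had an adjusted exact permutation p of 0.170 over the 28 pairs. The adjusted exact permutation p was also above the threshold without array 3-2 (0.0528), 3-3 (0.0507) or 4-3 (0.0576), with r of -0.93 in each case. The r was -0.91 on residuals from array brightness (adjusted permutation p = 0.0289) and -0.93 on residuals from sex (adjusted permutation p = 0.00903). Permutation of residuals is not exact and tends to make these p-values too small. On the deposited scale, which leaves the brightness of each array in, r was -0.44 (adjusted exact permutation p = 0.397), and with the mean of all probe sets of each gene -0.86 (adjusted exact permutation p = 0.0647). Within the 4 brighter or the 5 dimmer arrays there were too few animals for a correlation.

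**Figure D2:**
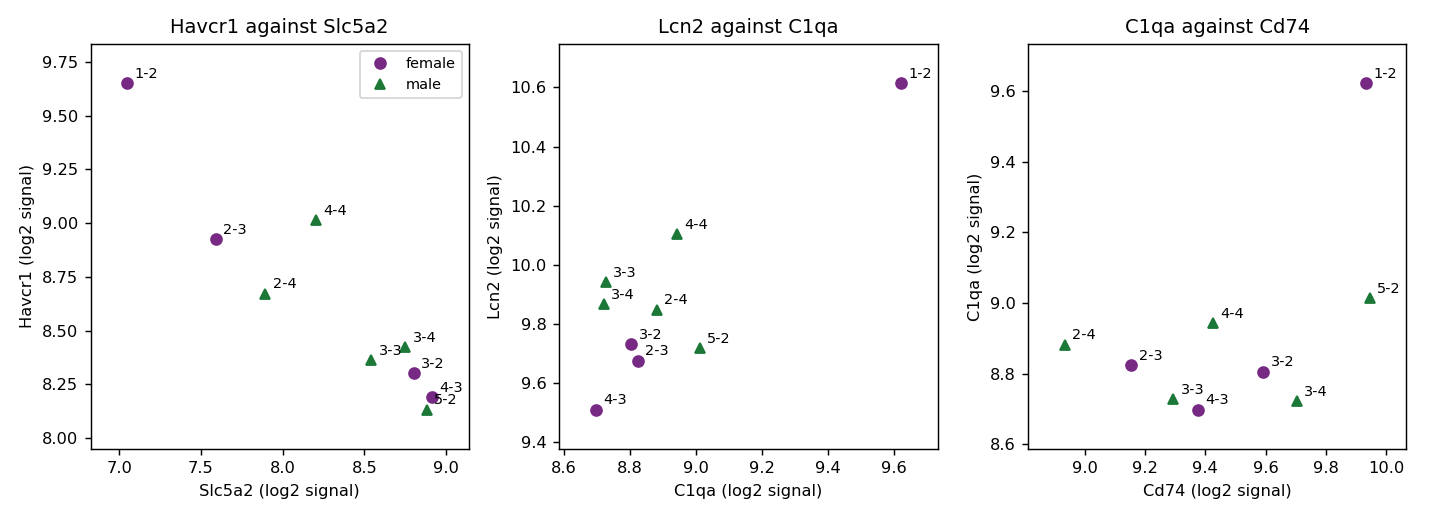
Log2 signal of Havcr1 against Slc5a2, Lcn2 against C1qa and C1qa against Cd74, 1 point per knockout array, labelled by animal (circles female, triangles male). Havcr1 falls along the whole range of Slc5a2, whereas array 1-2 alone is high for both C1qa (9.62) and Lcn2 (10.61).

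No other pair passed the adjusted threshold, although 9 of the 28 had an unadjusted exact permutation p under 0.05. The proximal tubule genes followed each other with r = 0.84 and rho = 0.73 (exact permutation p = 0.00637 and 0.0311, adjusted 0.0891 and 0.218), and r was 0.38 without arrays 1-2 and 2-3. The injury genes had r = 0.83 and rho = 0.65 (exact permutation p = 0.0104 and 0.0666, adjusted 0.0967 and 0.373), and r was 0.18 without arrays 1-2 and 4-4. On residuals from sex the injury pair had r = 0.87 (adjusted permutation p = 0.0282), under the threshold by a p-value that tends to be too small. Lcn2 and C1qa had r = 0.84 and rho = 0.43 (exact permutation p = 0.0273 and 0.250, adjusted 0.106 and 0.70). That relation rested on 1 animal: r was 0.29 without array 1-2 and -0.02 without arrays 1-2 and 4-3. Havcr1 and C1qa likewise had r = 0.78 and rho = 0.45 (exact permutation p = 0.0297 and 0.230, adjusted 0.106 and 0.70), and r was 0.25 without array 1-2.

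The other 4 pairs with an unadjusted p under 0.05 set the proximal tubule genes against the injury and macrophage genes. C1qa and Slc34a3 had r = -0.70 and rho = -0.82 (exact permutation p = 0.0264 and 0.0108, adjusted 0.106 and 0.151), and r was -0.45 without arrays 1-2 and 5-2. C1qa and Slc5a2 had r = -0.71 and rho = -0.53 (exact permutation p = 0.0329 and 0.148, adjusted 0.106 and 0.516), and r was -0.65 without the same arrays. Without array 1-2 alone the r of C1qa and Slc5a2 was -0.21, so it depended on which arrays were left out. Havcr1 and Slc34a3 had r = -0.74 and rho = -0.58 (exact permutation p = 0.0212 and 0.108, adjusted 0.106 and 0.504), and r was -0.68 without arrays 1-2 and 4-4. Lcn2 and Slc5a2 had r = -0.69 and rho = -0.55 (exact permutation p = 0.0339 and 0.133, adjusted 0.106 and 0.516), and r was -0.0086 without arrays 1-2 and 4-3, so that relation rested on those animals.

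Cd74 and C1qa, both read as macrophage genes, had r = 0.53 and rho = 0.35 (exact permutation p = 0.144 and 0.359, adjusted 0.366 and 0.810), and r was -0.37 without arrays 1-2 and 5-2. Ddit3 and Trib3 had r = 0.56 and rho = 0.73 (exact permutation p = 0.113 and 0.0311, adjusted 0.317 and 0.218), with r = 0.31 without arrays 1-2 and 5-2. The relation of injury to ER stress depended on the setting. Havcr1 and Ddit3 had r = 0.19 and rho = 0.083 (exact permutation p = 0.642 and 0.843, adjusted 0.792 and 0.874), and r was -0.37 without arrays 1-2 and 4-4. On the deposited scale their r was 0.73 (adjusted exact permutation p = 0.0468). On residuals from the first sample number as a block it was -0.97 (adjusted permutation p = 0.00278), and Ddit3 and Slc5a2 then had r = 0.98 (adjusted permutation p = 0.00278), against -0.13 without the block. Arrays 1-2 and 5-2 are alone in their numbers and add nothing to those residuals, and permuting residuals makes such p-values too small. Without array 1-2, 15 of the 28 coefficients kept their sign and 0 of 28 passed the adjusted threshold.

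**Figure D3:**
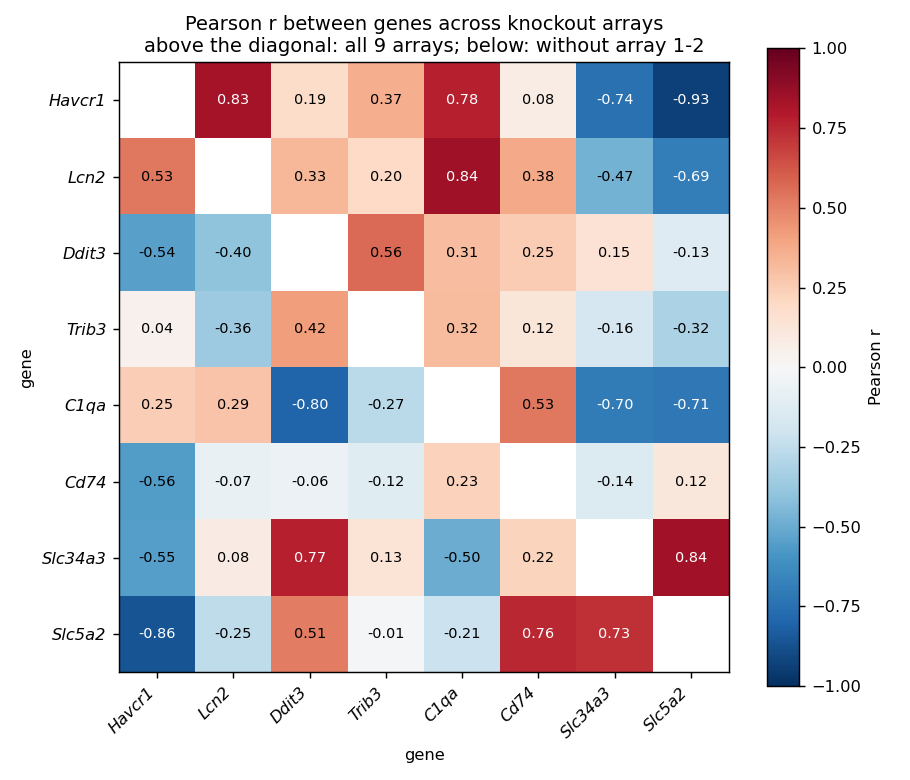
Heat map of Pearson r between the 8 genes, with all 9 knockout arrays above the diagonal and the 8 arrays other than 1-2 below it. Havcr1 with Slc5a2 (-0.93 and -0.86) and Slc34a3 with Slc5a2 (0.84 and 0.73) stay near each other on both sides, while Lcn2 with C1qa goes from 0.84 to 0.29 and Ddit3 with C1qa from 0.31 to -0.80.

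To find which other genes varied with each of the 8, every tested gene was fitted on it with limma across the 9 arrays, with Benjamini-Hochberg adjustment over 12348 genes. Slc5a2 was followed by 55 genes (0.445%), of which 41 rose with it (0.332%) and 14 fell (0.113%). Havcr1 was followed by 1 gene (0.0081%), which was Slc5a2. That count was 0 without array 1-2, 3-2 or 5-2, and 5 without 2-3, 50 without 2-4, 147 without 3-3, 2 without 3-4, 4 without 4-3 and 10 without 4-4. C1qa was followed by 18 genes (0.146%). Lcn2, Ddit3, Trib3, Cd74 and Slc34a3 were each followed by 0 genes (0.0%), with 1194, 420, 231, 572 and 1701 genes at an unadjusted limma p under 0.05. Without array 2-3, 3 genes followed Lcn2, and without array 5-2, 56 genes followed Slc34a3. Havcr1 itself had 2383 genes at that unadjusted level, Slc5a2 2420 and C1qa 1441. With no relation, a share of 0.05 of the 12348 genes is expected at that level. The counts for Ddit3, Trib3 and Cd74 lie below that share.

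Genes that rose with Slc5a2 included other transporters and receptors of the proximal tubule. Slc34a1, the main phosphate cotransporter of that segment, rose by 0.37 ± 0.05 (SE, n = 9) in log2 per log2 unit of Slc5a2 (r = 0.96, limma adjusted p = 0.0148). It was 10.92 on array 1-2 and 11.00 on 2-3, against a highest value of 11.65 on array 5-2. Cubn and Lrp2 encode cubilin and megalin, the endocytic receptors for filtered protein. Cubn rose by 0.50 ± 0.07 (r = 0.92) and Lrp2 by 0.49 ± 0.08 (r = 0.90). Slc22a12, the urate exchanger URAT1, rose by 0.55 ± 0.08 (r = 0.93). These 4 were among 6 called of the 50 tested genes in a list of proximal tubule genes, with the scaffold Pdzk1 (r = 0.88) and the inositol oxygenase Miox (r = 0.85); all 6 rose and 0 fell.

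Genes of other segments were among the followers too. Kl encodes klotho, the FGF23 coreceptor of the distal tubule, and followed Slc5a2 closely (r = 0.97, slope 0.49 ± 0.06, limma adjusted p = 0.0148). It was 9.14 on array 1-2 and 9.46 on 2-3, against 9.59 to 10.14 on the other 7. Slc26a4 (pendrin, r = 0.89) and Rhbg (an ammonium transporter, r = 0.90), both of the collecting duct system, rose as well, as 2 of 23 collecting duct genes tested. Slc26a4 ran from 5.86 on array 1-2 to 8.36 on array 3-4. From fatty acid oxidation, Hadh (r = 0.90) and the carrier Fabp3 (r = 0.93) rose, 2 of 28 tested. The matrix proteoglycan Lum rose (r = 0.93), as did Itgb6 (r = 0.93) and Vcam1 (r = 0.92), both of which stood in the list of injury-response genes.

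Genes that fell as Slc5a2 rose included, beside Havcr1 (slope -0.70 ± 0.09), several known from stressed epithelium. Sprr2f, a small proline-rich protein, had r = -0.86 and was 8.38 on array 1-2 against 6.75 on array 3-4. Letters of the C/EBP site type were found above in the Lcn2 window and at the middle Havcr1 start, but not at its first or last start. Cebpb, a transcription factor of the C/EBP family, had r = -0.89 and was 9.72 on array 1-2, 9.30 on 2-3 and 8.63 to 8.91 elsewhere. Its r with Havcr1 was 0.89 (limma adjusted p = 0.063) and with Lcn2 0.65 (limma adjusted p = 0.42), neither of them past the threshold. The r of Cebpb with Lcn2 was -0.19 without array 1-2. Whether the site letters have any part in these values was not tested. The metallothionein Mt2 (r = -0.87), the heat shock gene Hspa1b (r = -0.87) and the proapoptotic gene Bmf (r = -0.90) also fell.

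All 55 followers of Slc5a2 kept the sign of r without array 1-2, with absolute values from 0.67 to 0.94. The calls themselves were not stable: 0 genes passed without array 1-2 (1258 at an unadjusted limma p under 0.05) and 0 without array 5-2 (1936 at that level). The count was 14 without array 2-3, 4 without 3-2, 7 without 3-4, 7 without 4-4 and 1011 without 2-4. With array brightness as a second term 6 genes passed, 4 of them among the 55. The part of brightness in the other calls was not tested further.

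Beyond the 6 called, most of the proximal tubule list had r above 0 with Slc5a2. The median r of its 50 tested genes with Slc5a2 was 0.61, against 0.08 for all tested genes, and 41 of 50 were above 0. Without array 1-2 the median was 0.78 and 48 of 50 were above 0, and on residuals from array brightness it was 0.51. With Havcr1 the median was -0.49, and -0.64 without array 1-2, where 48 of 50 were below 0. For this list and those below, the share of all tested genes on each side of 0 was not counted.

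The animals with the lowest Slc5a2 differed over these genes. Array 2-3 held the lowest value of 34 of the 50 proximal tubule genes and the highest of 0. Of all 12349 tested genes it held the lowest value of 1709 and the highest of 1508. Array 1-2 had the highest Havcr1 of all and, by the probe set used, the lowest Slc5a2. It held the lowest value of 8 of the 50 genes and the highest of 16. Of all 12349 tested genes it held the lowest value of 2679 and the highest of 1908. Among the 8 lowest on array 1-2 were Slc34a1, Slc22a12, Cubn and Hnf4a, a master transcription factor of the segment. Among its 16 highest were the amino acid transporters Slc6a19, Slc6a18 and Slc3a1, the phosphate transporter Slc17a1, the sodium-proton exchanger Slc9a3, Cyp2e1 and Kap. Slc17a1 was 11.35 on array 1-2, 9.40 on 2-3 and 9.89 to 10.38 on the other 7. Slc6a19 was 7.60 on array 1-2, 6.13 on both 2-3 and 2-4, and 6.42 to 6.83 on the other 6. Cyp2e1 was 6.48 on array 1-2 and 3.36 to 5.22 elsewhere. So array 1-2 was low for some proximal tubule genes and high for others, and array 2-3 was low for most. The 8 lowest on array 1-2 were a smaller share than its lowest values over all tested genes. These genes were picked out after their values were seen, and the difference between the arrays has no replicate.

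**Figure D4:**
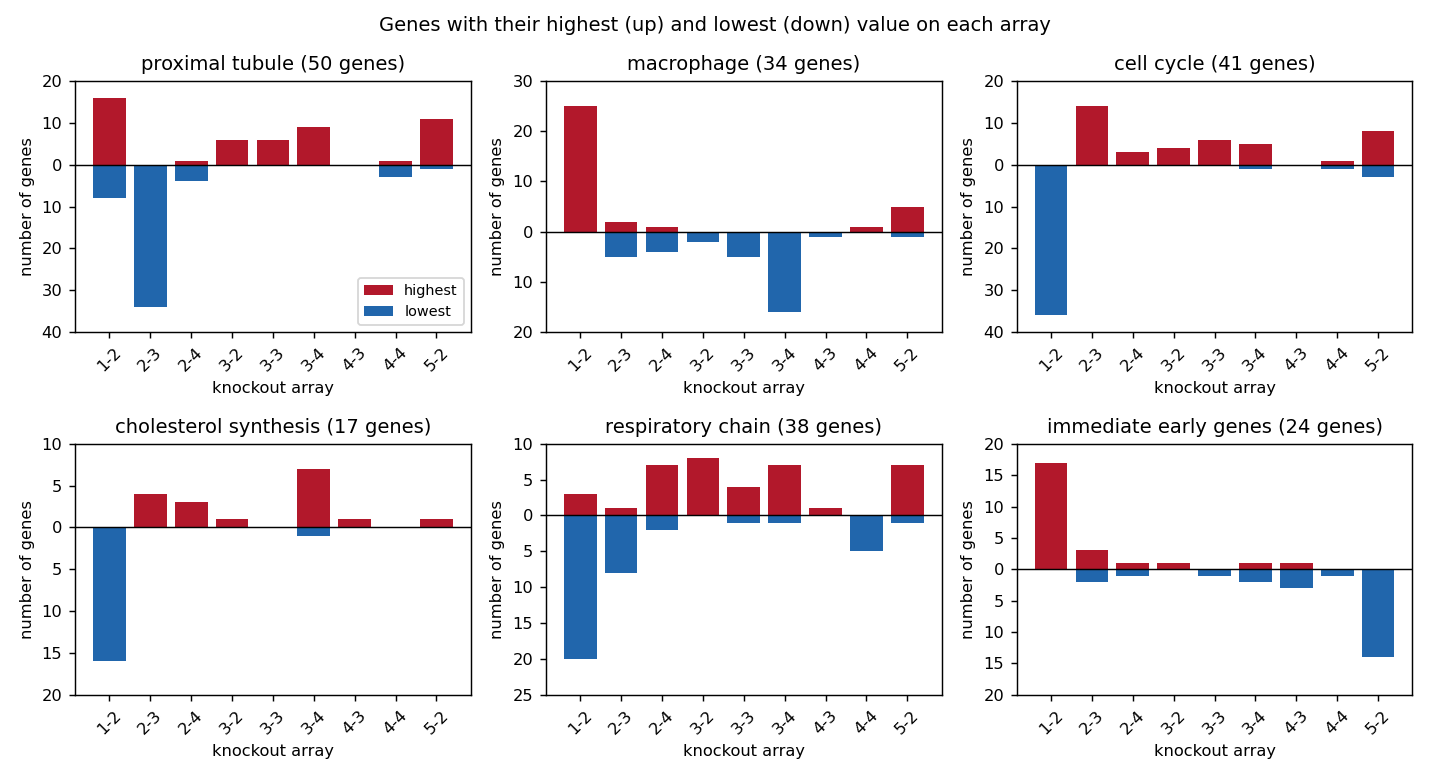
For 6 gene lists, the number of tested genes (y axis) whose highest value (bars up) or lowest value (bars down) of the 9 lies on each knockout array (x axis). Array 2-3 holds the lowest value of 34 of 50 proximal tubule genes, and array 1-2 holds the lowest of 36 of 41 cell cycle genes and the highest of 25 of 34 macrophage genes. Of all 12349 tested genes, 1709 are lowest on array 2-3, and 2679 lowest and 1908 highest on array 1-2.

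Mitochondrial genes had r of the same signs as the tubule list. Of 38 tested genes of the respiratory chain, 32 had r above 0 with Slc5a2 and 32 had r below 0 with Havcr1, with medians of 0.67 and -0.70 (0.52 and -0.59 without array 1-2; 0.63 and -0.68 on residuals from brightness). No member passed the limma test with either gene; the nearest with Slc5a2 was Atp5g1, a subunit of ATP synthase (r = 0.80, limma adjusted p = 0.070). Fatty acid oxidation genes had a median r of 0.45 with Slc5a2 and -0.48 with Havcr1 over 28 tested genes.

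Immediate early genes, the transcription factors and phosphatases that cells switch on quickly after stress or growth signals, had positive r with Havcr1 without passing its test. All 24 tested members had r above 0, with a median of 0.67 against -0.09 for all tested genes, and 0 passed the limma test with Havcr1. The nearest were Jund (r = 0.87, limma adjusted p = 0.064), Klf4 (r = 0.80), Socs3 (r = 0.78) and Klf6 (r = 0.79). Array 1-2 held the highest value of 17 of the 24 and array 5-2, lowest for Havcr1, the lowest of 14. Of all 12349 tested genes, 1908 were highest on array 1-2 and 1357 lowest on array 5-2. Without array 1-2 the median was 0.39, with 20 of 24 above 0, and on residuals from array brightness it was 0.60. The summed signal of the list separated brighter arrays (9119 to 12715) from dimmer ones (7337 to 8988), and the part of brightness in the result was not tested further. These genes can also respond to handling of tissue, and no label gives the handling time of each animal.

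Of 32 tested genes of the tubular injury response, 25 had r above 0 with Havcr1 (median 0.46, and 0.27 without array 1-2), and 0 passed the test. The protease inhibitor Timp1 and the calcium-binding protein S100a6 both had r = 0.89 with Havcr1 (limma adjusted p = 0.064 for each), and r = 0.71 and 0.77 without array 1-2. Timp1 was 8.94 on array 1-2, 8.53 on 4-4 and 8.02 on 3-2. The list did not move as a block, since Itgb6 and Vcam1 had r = 0.93 and 0.92 with Slc5a2. The 10 genes closest to both Havcr1 and Lcn2, ranked by the smaller of their absolute r, are a description of these arrays. The chemokine Cx3cl1 (0.88), Pamr1 (0.87), Cilp (0.87), Trmt6 (0.87), Inhbb (0.87), an inhibin chain, and the arginase Arg2 (0.86) went with them, and Lage3 (-0.94), Parp1 (-0.91), Reln (-0.90) and Ap3m1 (-0.89) against them. None of the 10 passed the limma test with Havcr1 or Lcn2.

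C1qa was followed by 18 genes, 7 rising with it (0.0567%) and 11 falling (0.0891%), and the pattern was that of 1 animal. Ctss, a lysosomal protease of macrophages, was 10.68 on array 1-2 and 9.35 to 9.84 elsewhere (r = 0.95, limma adjusted p = 0.015). Gpnmb, a glycoprotein of lipid-laden and phagocytic macrophages, was 8.76 on array 1-2 and 5.64 to 6.96 elsewhere (r = 0.89). These were 2 of 34 macrophage genes tested. The matricellular Ccn2, the fibrinogen chain Fga, Cx3cl1 and Arg2 were others that rose. Array 1-2 held the highest value of 25 of the 34 macrophage genes, against 1908 of all 12349 tested genes. The median r of the macrophage genes with C1qa was 0.75, and 0.37 without that array. With Slc5a2 their median r was -0.43, and 0.05 without it.

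Proliferation went against C1qa for the same animal. Mki67, the antigen of dividing cells, was 8.72 on array 1-2 and 9.72 to 10.07 on the other 8 (r = -0.91, limma adjusted p = 0.031). Pcna, the DNA polymerase clamp, was 10.98 against 11.53 to 11.79. Kif20a, a mitotic kinesin, was 5.35 against 6.91 to 7.28. These 3 were the cell cycle genes called among 41 tested, all falling. Array 1-2 held the lowest value of 36 of the 41, against 2679 of all 12349 tested genes. The median r of the list with C1qa was -0.79, and -0.04 without array 1-2. Cholesterol synthesis behaved likewise: array 1-2 was lowest for 16 of 17 tested genes, with a median r of -0.71 with C1qa and -0.05 without that array. Hdc, the histamine-forming enzyme, also fell, from 9.63 to 10.13 on the other 8 arrays to 6.49 on array 1-2 (r = -0.94, limma adjusted p = 0.0029), and was named after its value was seen.

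Leaving out array 1-2, C1qa was followed by 0 genes (287 at an unadjusted limma p under 0.05, below the share of 0.05 expected with no relation). Of the 18, 15 kept their sign, with absolute r from 0.01 to 0.80. The count was 5 without array 2-4, 4 without 3-2, 8 without 3-4, 33 without 4-3, 5 without 4-4 and 41 without 5-2. Array 1-2 held the highest or the lowest value of 37.1% of all tested genes, more than any other array, and was also the brightest. With brightness as a second term 22 genes followed C1qa, 12 of them among the 18. The summed signal of 11 neutrophil markers was 358 to 580 over the arrays, at 580 on 1-2 and 579 on 2-3. Of the 4 tested, S100a8 was highest on 1-2, S100a9 and Ngp on 2-4, and Csf3r on 4-4. Lymphocyte markers summed to 215 to 359 and were highest on array 4-3.

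MHC class II genes had higher r with Cd74 than with C1qa, a difference that was not tested. All 5 tested members had r above 0 with Cd74, with a median of 0.78, and 0.82 without array 1-2, but 0 passed the limma test. H2-Ab1 had r = 0.85, H2-Eb1 0.83, H2-Aa 0.78 and H2-DMa 0.75. Their median r with C1qa was 0.35. The summed signal of the list was 3070 on array 5-2 and 3045 on array 1-2, the arrays highest for Cd74, and 2202 to 2772 on the other 7. The other macrophage genes had a median r of 0.38 with Cd74, and 0.11 without array 1-2. Proximal tubule genes were above 0 with Cd74 for 49 of 50 tested, at a median of 0.41 (0.59 without array 1-2). The share of all tested genes above 0 with Cd74 was not counted, so these values are not set against a background. Cd74 is known in tubule cells as well as in macrophages, and its source was not tested. The genes closest to both Cd74 and C1qa were led by Tcp11l2 and Lgmn, a lysosomal protease of macrophages and tubule cells. They included the tubule transporter Slc6a19, which was high on array 1-2 as given above.

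Genes of the ER stress response were split in their relation to the injury genes, and none passed the test with Havcr1 or Lcn2. Of 33 PERK and ATF4 targets, 19 had r above 0 with Havcr1 (median 0.21), with Cebpb at 0.89, Psat1 at 0.84, Ddit4 at 0.82 and Nupr1 at 0.80. Of 30 chaperones and degradation genes, 17 had r above 0 with Havcr1 (median 0.082, and 0.30 without array 1-2), with Calr and Edem1 at 0.82 each and Hyou1 at 0.75. The members named here all had positive r with Havcr1, and those below 0 are not named. The medians with Lcn2 were 0.13 and 0.080. Of the chaperone list, Pdia6 and Dnajc3 had r of -0.62 and -0.58 with Lcn2, and Derl1 and Dnajb9 0.57 and 0.55. Of 33 tested targets of PERK and ATF4, the arm of the response that raises CHOP, 28 had r above 0 with Trib3 (median 0.40, and 0.40 without array 1-2), but the median with Ddit3 was 0.03. Atf4 itself had r = 0.76 with Trib3, and the serine synthesis enzyme Psat1 had 0.68. The Trib3 promoter above holds an ATF4-type match, and whether it has any part in these values was not tested. No member of the list passed the limma test with Trib3 or Ddit3. Of 30 ER chaperones and degradation genes, 25 had r above 0 with Trib3 (median 0.26), led by Herpud1 (r = 0.89, not past the limma threshold), and the median with Ddit3 was 0.11. With Slc5a2 the list medians were -0.27 and -0.12. Edem1 (r = -0.92 with Slc5a2, limma adjusted p = 0.068) and Calr (r = -0.90, 0.081) were the nearest of the chaperone list to the tubule gene. Zfp36, which encodes an RNA-binding protein and stood in the immediate early list, had r = 0.98 with Trib3 and did not pass the limma test. The genes closest to both Ddit3 and Trib3 had smaller absolute r of 0.69 to 0.78, led by Syt11 (0.76) and Atp6v1c2 (-0.78), against 0.86 to 0.94 for the injury pair.

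**Figure D5:**
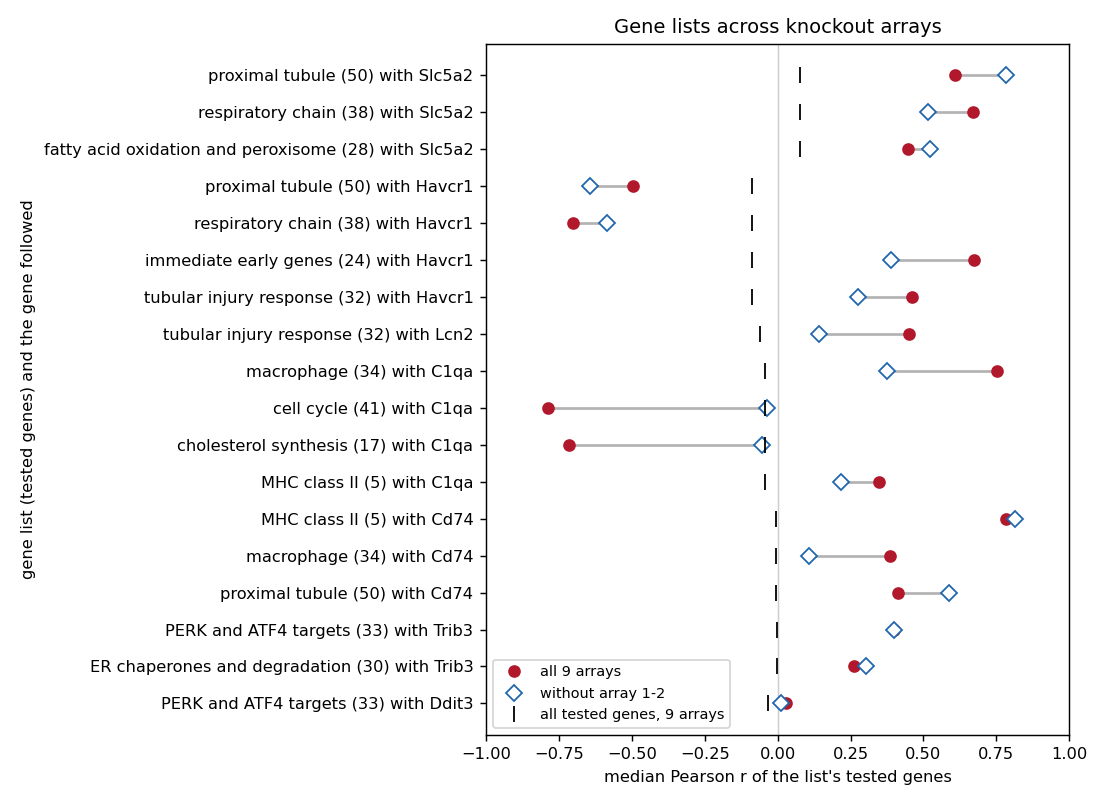
Median Pearson r (x axis) of the tested genes of each list with 1 of the 8 genes, over all 9 knockout arrays (filled circles) and without array 1-2 (open diamonds); ticks give the median of all tested genes. The proximal tubule list keeps its medians with Slc5a2 (0.61 and 0.78), while the cell cycle list goes from -0.79 to -0.04 with C1qa.

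Of the 10 genes with the largest SD, 4 were sex-linked, 5 are known from fat, chiefly brown fat, and the other was Erdr1. Ucp1, the uncoupling protein of brown adipocytes, ran from the floor of 2.80 on array 2-3 through 5.74 on 4-4 to 9.88 on array 2-4. Adipoq ran from 2.80 on 2-3 through 3.58 on 4-4 to 8.30 on 2-4, and Cidea, Cox8b and Car3 were likewise lowest on 2-3, next lowest on 4-4 and highest on 2-4. The summed signal of 11 adipose markers ran from 5668 to 11195, while Lep was at the floor on 8 of 9 arrays. The median r of the 8 tested adipose markers with Havcr1 was -0.24, and -0.64 without array 1-2. Array 1-2, highest for Havcr1, had the second highest adipose sum (8763) and the highest Pck1 and Lpl. That sum was carried largely by Fabp4, Pck1 and Lpl (medians 11.86, 10.61 and 10.51), against medians of 7.74 for Ucp1, 6.77 for Cidea and 6.53 for Adipoq. Whether the sum measures fat was not tested. On residuals from the mean log2 level of the 8 tested adipose markers, Havcr1 and Slc5a2 still had r = -0.93. The adjusted permutation p was 0.05 over the 28 pairs, at the threshold, and permuting residuals tends to make it too small.

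Erdr1 was 11.04 on array 4-3 and 10.88 on 4-4, and 5.53 to 6.49 on the other 7. Mid1 was high on the same arrays, at 8.34 and 8.80 against 5.50 to 6.41, and was named after its value was seen. Arrays 4-3 and 4-4 are a female and a male that share the first number of their labels. Liver markers other than Ttr and Apoa2 were near the floor, with Alb at most 4.21 and Ahsg at most 3.42. Ttr was 12.81 on array 1-2 and 11.08 to 11.75 elsewhere. Red cell markers summed to 1058 to 1450, adrenal markers to 157 to 244 and muscle markers to 152 to 344. What part any of these tissues had in the correlations was not tested.

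The first principal component over tested genes held 32.7% of the variance among knockouts, the second 12.6% and the third 11.9%. Scores on the first ran from 0.64 to 28.4 on brighter arrays and from -23.7 to 4.81 on dimmer ones (exact two-sided permutation p = 0.0317), so it moved with array brightness, and Xist was among the genes at its end. Its r was 0.68 with Havcr1 and -0.66 with Slc5a2. The second had r = 0.79 with C1qa and 0.74 with Cd74. Havcr1 had r = 0.26 with the second, and C1qa 0.47 with the first.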

How the data were processed

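RNA of 9 knockout kidneys was measured on 9 arrays. The authors deposited signal intensity, on a linear scale and made with GCOS 1.3 according to the submitters' processing notes; no source used here gives the algorithm or the scaling between arrays. The intensities were quantile normalized over the 9 knockout arrays, floored at the 20th percentile and converted to log2, so differences of dim genes are understated. Of 45101 probe sets, 34958 name 1 gene in the platform annotation, 932 several, and 9211 are unnamed here; 34754 matched RefSeq gene identifiers (GRCm38.p6) and 204 did not. The brightest probe set stood for a gene. A gene was tested where 5 or more of the 9 arrays exceeded their own 40th percentile, which left 12349 of 18194 genes.

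Pairs of genes were tested by exact two-sided permutation over 362880 pairings. Where residuals from sex, brightness, block or adipose level were permuted, the p-value is not exact. Slopes were fitted with limma 3.58.1 (lmFit, eBayes with a variance trend) in R 4.3.3, with Benjamini-Hochberg adjustment at 0.05, after the fit had been tested on simulated data. Gene lists are described by counts and medians only. The genes, lists and alternatives were chosen with earlier results of these data known; leaving out array 1-2 from the list medians, the adipose covariate and the brighter and dimmer arrays were added after seeing the data. Wild-type arrays were used only in 1 alternative, a normalization over all 16 arrays. Named genes are the 8, the 6 positive and 4 negative genes closest to both genes of each pair, the 10 largest SDs, and up to 4 members of each list with the smallest p; other genes called or extreme were named after their values were seen. P-values cover the spread between these animals.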

Additional observations from a re-analysis of the deposited data

Results flagged for a closer look

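In 54 genes examined, 11 had 1 array standing apart from the other 8 by Dixon's criterion (gap over range above 0.493), and it was array 1-2 each time; chance gives about 1 in 20 groups of samples. C1qa was 9.62 there, with the next array at 9.01. The other high values of array 1-2 were 9.42 for Cx3cl1, 8.98 for Pamr1, 9.37 for Arg2, 11.55 for Lgmn and 7.60 for Slc6a19. Its low values were 9.01 for Parp1, 6.15 for Reln, 8.23 for Ap3m1, 6.16 for Rad51ap1 and 6.28 for Ckap2l. Apart from C1qa, these genes had been ranked by their correlation across the same arrays, which favours genes with 1 extreme array. So 1 in 20 is not a baseline for them, and the share over all tested genes was not counted. Whether array 1-2 differs by its animal or by its RNA was not tested.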

How the results depend on the processing

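On the deposited scale, where array brightness stays in the values, 8339 genes followed Havcr1, 9853 Lcn2, 10328 Ddit3, 8710 Trib3, 10319 C1qa, 7938 Cd74 and 0 Slc5a2, 14 of 28 pairs passed, and Havcr1 and Slc5a2 had r = -0.44. With median centring, 1 gene followed C1qa and 142 Slc5a2. Without a filter on low genes, 0 followed Havcr1, 3 C1qa and 1 Slc5a2. With the mean of a gene's probe sets, 0 followed Havcr1 and 94 Slc5a2, 0 pairs passed, and Havcr1 and Slc5a2 had r = -0.86. With sex as a term, 40 genes followed Lcn2, 4 C1qa and 9 Slc5a2. On residuals from sex 2 pairs passed, Havcr1 with Slc5a2 and with Lcn2, by permutation p-values that tend to be too small. With brightness as a term, 0 followed Havcr1 and 6 Slc5a2. With the first sample number as a replicate block, 0 genes followed Havcr1, 0 C1qa, 5 Slc34a3 and 0 Slc5a2. On residuals from the block 3 pairs passed (Havcr1 with Slc5a2, Havcr1 with Ddit3, Ddit3 with Slc5a2). Deviations of arrays sharing a number correlated from -0.32 (brighter array 3-3 with dimmer 3-4) to 0.17 (brighter arrays 3-2 and 3-3). Brightness enters that range, so it does not show whether animals sharing a number are alike. Erdr1 and Mid1 were high on both arrays of number 4. The main tests treated the 9 arrays as independent. The cause of these changes was not tested.

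Leaving out 1 array at a time gave 0 to 147 genes for Havcr1, 0 to 3 for Lcn2, 0 to 41 for C1qa, 0 to 56 for Slc34a3 and 0 to 1011 for Slc5a2, 0 to 5 pairs, and r from -0.96 to -0.86 for Havcr1 and Slc5a2. Without the 2 arrays farthest from the median, the sign turned in 12 of 28 pairs, among them C1qa with Cd74 (-0.37), Havcr1 with C1qa (-0.014) and Lcn2 with C1qa (-0.016). The r of Havcr1 and Slc5a2 was negative under all 19 alternatives run and lost its adjusted call under 6 of them. The number of arrays, 9, limits what can be called.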

Other observations

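Genes of other kidney compartments gave the following values, with no test of the lists. The median r with Slc5a2 was 0.36 for 21 endothelial genes, 0.26 for 23 collecting duct genes, -0.19 for 15 podocyte genes and -0.21 for 16 nephron progenitor genes. The endothelial gene closest to the tubule pair was Emcn (endomucin), with r = 0.93 with Slc5a2 and 0.91 with Slc34a3 (limma adjusted p = 0.068 and 0.16). The interferon response list had medians of 0.29 with Havcr1 and 0.31 with Cd74, which were 0.02 and 0.21 without array 1-2. Single members stood further out without passing the limma test: r with Havcr1 was -0.85 for Slc26a4, -0.80 for Rhbg and 0.87 for the podocyte gene Cd2ap, and r with Lcn2 was -0.91 for the endothelial gene Icam2.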
